A study of Drosophila melanogaster with 21 samples.

Results

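The 26S proteasome is built from subunits whose Drosophila genes carry the names Prosalpha, Prosbeta, Rpt and Rpn. Every gene whose name began with Prosalpha, Prosbeta, Rpn plus a digit or Rpt plus a digit was taken, which gave 47 of the 17555 genes in the deposited tables. Of these, 14 encode the core particle, 18 the regulatory particle and 15 are paralogs whose names end in T or R, a group known in flies for expression in the testis. The rule itself uses gene names alone.

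The core particle is a barrel of stacked rings. Its outer rings hold the alpha subunits and gate the entrance, and its inner rings hold the beta subunits, among them the proteases Prosbeta1, Prosbeta2 and Prosbeta5. The regulatory particle caps the barrel: its Rpt subunits are ATPases that unfold proteins and thread them inward, and its Rpn subunits form a scaffold, bind ubiquitin and remove it. Cells are known to raise the mRNAs of many subunits together when proteasome activity is short, in flies through the transcription factor encoded by cnc.

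All samples came from DL1, a Drosophila line with blood cell (hemocyte) character. In the RNA interference experiment, wild-type DL1 cells were bathed for 60 min in 20 µg of double-stranded RNA against Pum (Pumilio, a repressor that binds mRNA), Not1 (the scaffold of the CCR4-NOT complex) or Pop2 (a deadenylase of that complex), or against bacterial LacZ as the non-targeting control, and were harvested after 48 h. In the knockout experiment, 2 clonal isolates of DL1 with pum knocked out (Pum KO clone 1 and Pum KO clone 2) were set against the parental wild-type line (WT). Each clone is a single isolate, so an effect of losing pum and a trait of that clone cannot be told apart. The 7 groups held 3 samples each, labelled as biological replicates. Poly(A) RNA was sequenced by ClickSeq, in which azido-nucleotides end the cDNA at random and click chemistry then attaches the adapter.

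The deposited tables give group means, fold changes and tests, with no value per sample. The means are written to 15 significant digits, and from them the whole reads of each of the 3 libraries were recovered for all 47 genes in all 7 groups. Libraries are called A, B and C in order of falling size factor, and which labelled replicate each one is cannot be told. Estimated depth ran from 2412627 reads (Not1 RNAi C) to 13794764 reads (Pum KO clone 1 A). Each targeted gene was lower in its own RNAi than in LacZ RNAi, with log2 fold changes of -1.69 for pum, -3.27 for Not1 and -4.34 for Pop2 in the authors' deposited table. In the knockouts the authors' deposited table gave pum log2 fold changes of -1.55 in clone 1 and -0.51 in clone 2. No source used here says which part of pum was deleted, so these reads check nothing about the deletion.

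A pair of libraries stood apart from their groups. Across genes, LacZ RNAi C correlated at 0.906 and 0.904 with libraries A and B, which correlated at 0.986 with each other. Not1 RNAi C correlated at 0.930 with both of its partners, against 0.995 between them. Both are the shallowest of their group, with 4004032 and 2412627 estimated reads. In normalized counts LacZ RNAi C lay above its partners, with a median over the constitutive subunits 0.51 (log2) above the mean of LacZ RNAi A and B. As a share of recovered counts it did not stand out: the constitutive subunits took 0.733%, 0.750% and 0.763% in LacZ RNAi A, B and C. Its normalized counts summed to 7322244, against 5589161 and 5410492 in A and B. In Not1 RNAi the constitutive subunits took 1.17%, 1.18% and 0.718% of recovered counts in A, B and C. On this share Not1 RNAi C lay below its partners. Recovered reads were 2040062 of an estimated 2412627 in Not1 RNAi C and 5673483 of 7058103 in LacZ RNAi A. The part recovered thus differed between libraries, so this share is not compared between the 2 groups. Its normalized counts summed to 8401460, against 5634559 and 5373836 in Not1 RNAi A and B. The hemocyte markers Hml, NimC1, srp, He, Pvr and eater (6 genes) summed to 10812 to 12324 normalized counts in Pum RNAi, 10379 to 11951 in Not1 RNAi, 8574 to 10782 in Pop2 RNAi and 4786 to 13104 in LacZ RNAi, and none was at 0 in any group. Their part in the proteasome values was not tested. Results that rest on the pair of libraries are therefore given with and without them, the second by limma on log2(normalized count + 1). Of the 32 constitutive subunits, 13 share exon sequence with a gene on the opposite strand, namely Rpt6, Rpt2, Rpt4, Rpt5, Rpn7, Rpn9, Prosalpha1, Prosalpha2 and all of Prosbeta1 to Prosbeta5. No source used here says whether counting used strand, so such pairs cannot be told apart. Rpn1, Rpn3, Rpn10, Rpn12, Rpt3 and Rpt6R have no such overlap. The RNAi and knockout tables were normalized separately, so levels are compared only within a table.

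Constitutive subunits were among the more abundant mRNAs, and the levels of genes whose proteins assemble in equal numbers differed widely. In LacZ RNAi the 18 regulatory subunits had a median level of 860 normalized counts per kb, and 13 core subunits, without Prosalpha1, a median of 1341 per kb. All genes with a mean of at least 5 had a median of 93.9 per kb in that group. The highest core level there was that of Prosalpha4 with 2570 ± 213 per kb (SD, n = 3). The lowest was that of Prosbeta7 with 256 ± 43 per kb, a difference of 10.1-fold. Prosalpha3 with 2511 ± 1014 per kb lay within its spread of Prosalpha4. In the regulatory particle, Rpn11, the deubiquitinase of the lid, had the highest level with 1783 ± 106 per kb and Rpn9, a scaffold subunit of the lid, the lowest with 280 ± 61 per kb. In WT Prosalpha4 led again, with 4347 ± 640 per kb. Rpn9 with 354 ± 26 and Prosbeta7 with 368 ± 63 per kb lay lowest, within their spread of each other. The top of the regulatory particle differed: in WT Rpn5 had 2522 ± 104 and Rpn11 2362 ± 127 per kb.

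**Figure D1:**
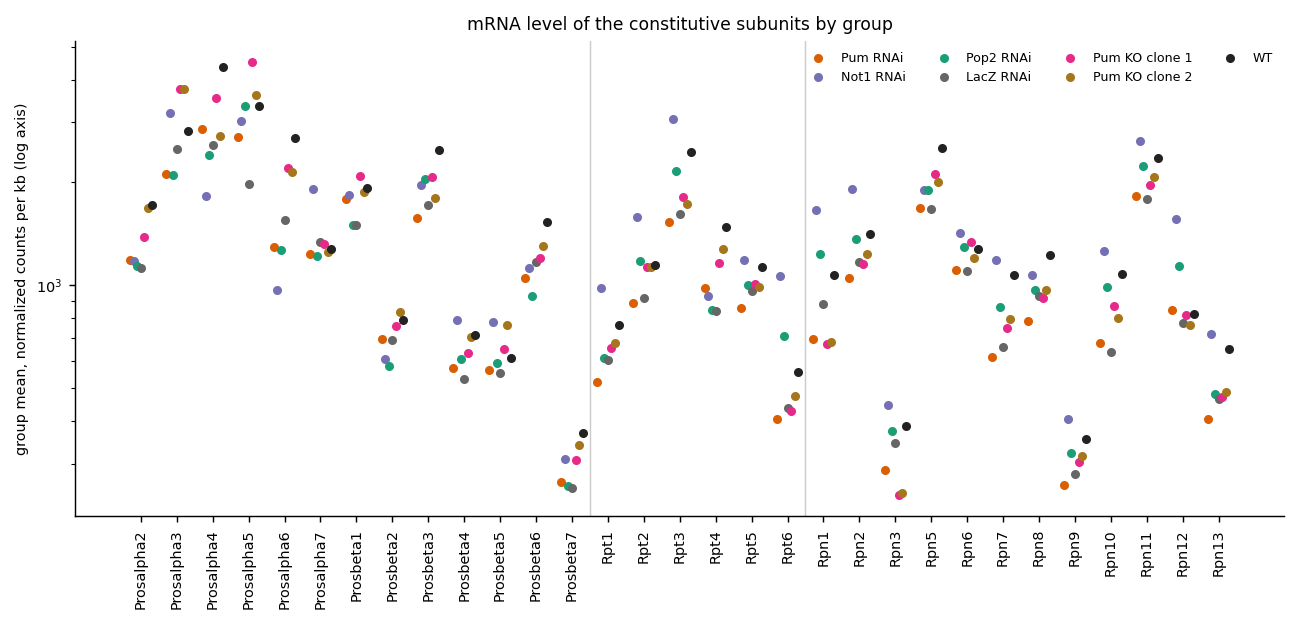
Group mean level of 31 constitutive subunits, without Prosalpha1, in normalized counts per kb on a log axis, with core subunits left of the first line, Rpt subunits between the lines and Rpn subunits right of the second. Prosbeta7, Rpn3 and Rpn9 lie near the bottom in all 7 groups. The 4 RNAi groups and the 3 knockout groups were normalized separately.

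Prosalpha1, an outer ring subunit, was nearly without reads. Its libraries held 1.25, 0.671 and 2.17 normalized counts in Pum RNAi, 0.758, 2.49 and 0 in Not1 RNAi, 18.7, 0 and 0 in Pop2 RNAi, and 2.96, 2.19 and 54.2 in LacZ RNAi. Most of the LacZ RNAi mean of 19.8 thus came from library C, the one that stands apart. In the 9 knockout and WT libraries it ranged between 0 and 2.00. The annotation has a neighbouring copy, CG30382, which had 1 read in 1 WT library and none elsewhere. Reads that fit a near-identical copy equally well can be lost in counting, so Prosalpha1 is taken as uncertain and is left out where levels are summarised. In the authors' deposited table its fold changes passed no test.

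Depletion of Not1 raised mRNAs of the regulatory particle. All values here are relative mRNA levels, and no protein level was available. At an adjusted p below 0.05 in the authors' deposited table, 12 of 18 regulatory subunits were higher in Not1 RNAi than in LacZ RNAi and none was lower, against 25.7% of all 9051 genes tested that rose and 24.2% that fell. The median over the 18 was 0.66 (log2) against 0.01 over all genes. Called were 4 of 6 Rpt and 8 of 12 Rpn subunits, and all 18 fold changes were above 0. Without both shallow libraries limma called all 18 higher, where 36.1% of 7608 genes were called higher and 34.7% lower, and their median was 0.78. Scaled to total library size, with all libraries, the median of the 18 was 0.58 while that of all genes was -0.09.

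The largest change among the ATPases was that of Rpt6 (FBgn0020369, chromosome X, 21316052 to 21317663 in dm6). It had 1474, 1587 and 1425 normalized counts in Not1 RNAi A, B and C, against 549, 459.9 and 837 in LacZ RNAi A, B and C. All 3 Not1 RNAi libraries lay above all 3 of LacZ RNAi, and LacZ RNAi C was the highest of the controls. The authors' deposited table gave a fold of 2.45 (log2 1.29 ± 0.20, standard error, SE, adjusted p = 1.8e-09), and limma without both shallow libraries gave 1.60 ± 0.11 (adjusted p = 3.25e-10). Rpt3 and Rpt2, ATPases of the same ring, had log2 fold changes of 0.92 ± 0.16 (adjusted p = 9.98e-08) and 0.80 ± 0.22 (adjusted p = 0.000855) in the authors' deposited table. Rpt1 had 0.70 ± 0.23, while Rpt4 with 0.16 ± 0.23 and Rpt5 with 0.31 ± 0.21 did not pass in the authors' deposited table.

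The called Rpn subunits were scaffolds, ubiquitin receptors and the deubiquitinase. Rpn1 (FBgn0028695, chromosome 3L, 19915051 to 19918160), the scaffold at which ubiquitin shuttles dock, had 5060, 5092 and 5045 normalized counts in Not1 RNAi, against 2279, 2423 and 3317 in LacZ RNAi. The 3 Not1 RNAi libraries were nearly equal and lay above every control. The authors' deposited table gave 0.93 ± 0.15 (log2, adjusted p = 4.59e-09).

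Rpn10 (FBgn0015283, chromosome 3L, 21537000 to 21538582), a ubiquitin receptor, had 2028, 1957 and 1396 normalized counts in Not1 RNAi, against 928, 862 and 933 in LacZ RNAi. Its controls were tight, library C included, and the groups did not overlap. Its log2 fold change in the authors' deposited table was 0.99 ± 0.16 (adjusted p = 2.68e-09). Rpn12 (FBgn0028693, chromosome 3L, 16583028 to 16584022), a lid scaffold subunit, had 1624, 1646 and 1388 normalized counts in Not1 RNAi, against 657, 637 and 1015 in LacZ RNAi. The groups did not overlap here either, and the authors' deposited table gave 1.02 ± 0.20 (log2, adjusted p = 1.02e-06).

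The other called Rpn subunits, in the authors' deposited table, were the lid subunits Rpn7 (0.84), Rpn11 (0.57) and Rpn9 (0.55), the scaffold Rpn2 (0.71) and the ubiquitin receptor Rpn13 (0.63, adjusted p = 0.0457). Rpn13 was the one called regulatory subunit whose libraries overlapped: it had 883, 1009 and 1726 normalized counts in Not1 RNAi, against 661, 611 and 1063 in LacZ RNAi. Both shallow libraries were the highest of their groups for it. Rpn3, Rpn5, Rpn6 and Rpn8 did not pass, with log2 fold changes between 0.19 and 0.38 in the authors' deposited table.

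With all libraries, the core particle mRNAs did not follow as a class in Not1 RNAi. Without both shallow libraries more of its subunits were called higher, as given below. Of 14 core subunits, 1 was higher and 1 lower in the authors' deposited table, each share below the 25.7% and 24.2% of all genes, with a median of 0.25 (log2). Prosbeta4, a structural subunit of the inner ring, rose by 0.58 ± 0.21 (log2, adjusted p = 0.0144) per the authors' deposited table. It had 639, 613 and 679.5 normalized counts in Not1 RNAi, against 312, 404 and 584 in LacZ RNAi. Prosalpha6, an outer ring subunit, fell by 0.67 ± 0.26 (log2, adjusted p = 0.0206) per the authors' deposited table. It had 1293, 1214 and 597 normalized counts in Not1 RNAi, against 1542, 1546 and 1894 in LacZ RNAi. Not1 RNAi C was the lowest of all, and without both shallow libraries the fall by limma was -0.30 ± 0.12 (adjusted p = 0.0263).

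In library C of Not1 RNAi the classes lay far apart. Its median core level was 0.11 below the mean of LacZ RNAi A and B (log2 -0.11), while libraries A and B of Not1 RNAi lay 0.48 and 0.38 above it. For the regulatory subunits the same medians were 0.78, 0.77 and 0.72 in libraries A, B and C. Without both shallow libraries limma called 9 of 14 core subunits higher and 1 lower in Not1 RNAi, where 36.1% of all genes were higher and 34.7% lower, with a median of 0.43 (log2). The proteases then gave 0.64 ± 0.15 for Prosbeta1 (adjusted p = 0.000817), 0.13 ± 0.13 for Prosbeta2 (adjusted p = 0.399) and 0.99 ± 0.11 for Prosbeta5 (adjusted p = 2.61e-07) by limma. In the authors' deposited table, with all libraries, none of these proteases passed, with 0.29, -0.16 and 0.51 for Prosbeta1, Prosbeta2 and Prosbeta5.

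**Figure D2:**
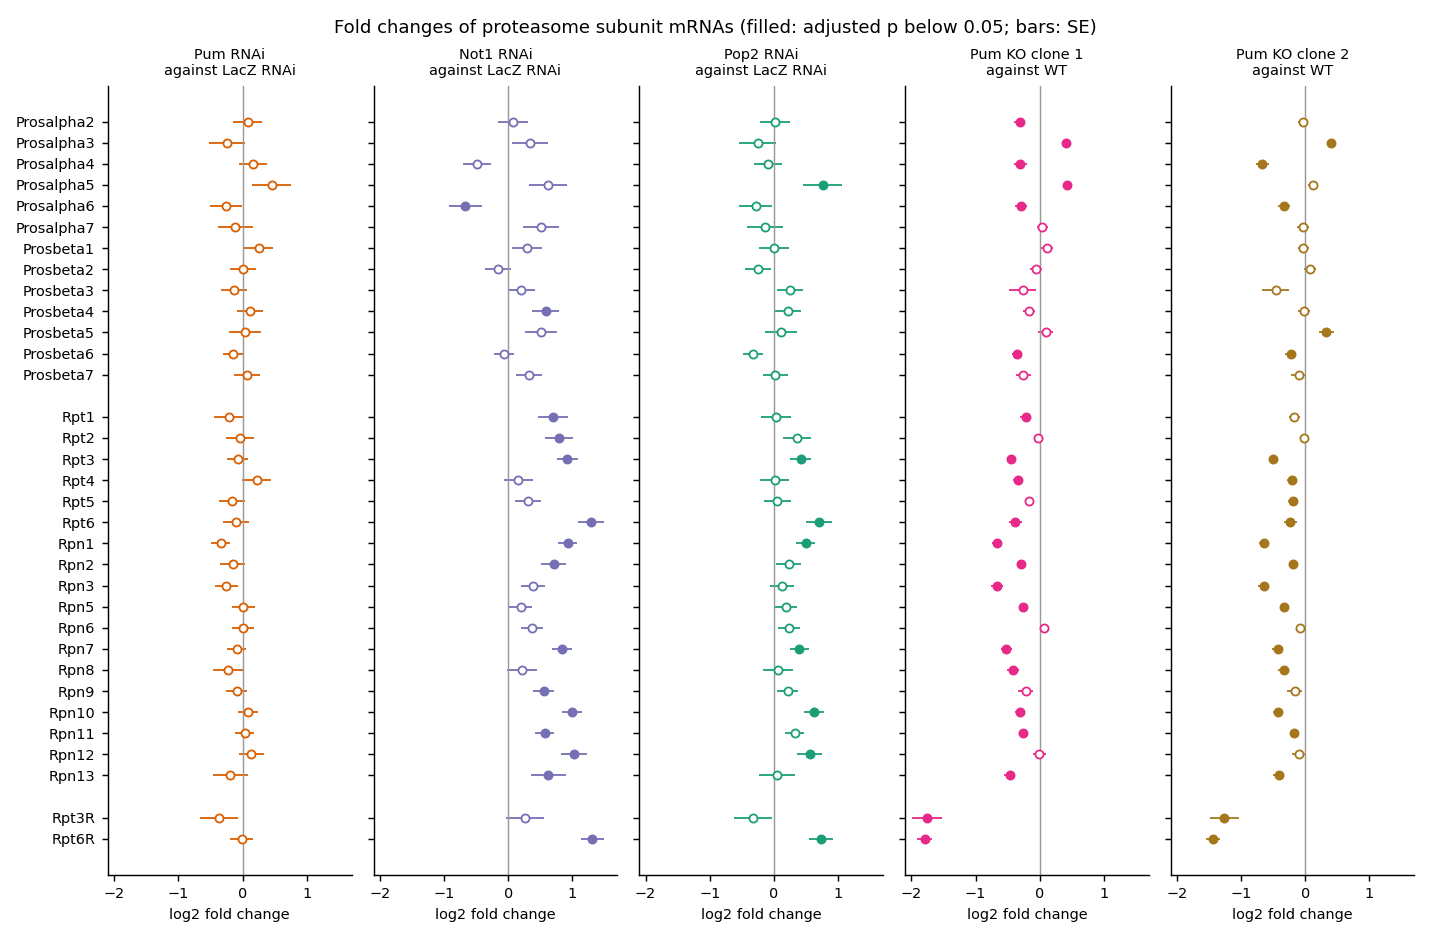
Log2 fold changes in the authors' deposited table with their SE, for 31 constitutive subunits and the paralogs Rpt3R and Rpt6R, in 5 comparisons with their controls. Filled points have an adjusted p below 0.05. Regulatory subunits lie right of 0 in Not1 RNAi and mostly left of 0 in both knockout clones.

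Depletion of Pop2 raised the mRNAs of some of the regulatory subunits by smaller amounts. Of the constitutive subunits in the authors' deposited table, 6 of 18 regulatory and 1 of 14 core subunits were higher in Pop2 RNAi than in LacZ RNAi and none of the 32 was lower, against 18.8% of 9051 genes higher and 20.1% lower. Medians were 0.23 over the regulatory particle, -0.05 over the core particle and -0.05 over all genes. The share of regulatory subunits called is thus above the background share, and that of core subunits below it. Scaled to total size, the regulatory median was 0.53 and the core median 0.26, where that of all genes was 0.29.

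Rpt6 had 961, 937 and 1085 normalized counts in Pop2 RNAi, against 549, 459.9 and 837 in LacZ RNAi, with no overlap. The authors' deposited table gave 0.70 ± 0.20 (log2, adjusted p = 0.00236). Rpn10 had 1332, 1384 and 1488 normalized counts in Pop2 RNAi, against 928, 862 and 933 in LacZ RNAi, again with every treated library above every control. Its log2 fold change was 0.63 ± 0.16 (adjusted p = 0.000371) in the authors' deposited table. Rpn1 had 3490, 3997 and 3794 normalized counts in Pop2 RNAi, against 2279, 2423 and 3317 in LacZ RNAi.

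The remaining calls in the authors' deposited table were Rpn12 (0.56, with overlapping libraries), Rpn1 (0.50), Rpt3 (0.41) and Rpn7 (0.39), and in the core Prosalpha5 (0.76 ± 0.30, adjusted p = 0.0325). Prosalpha5, an outer ring subunit, had 3308, 3039 and 3146 normalized counts in Pop2 RNAi, against 1866, 2077 and 1670 in LacZ RNAi. These groups were far apart. Limma on all libraries called 4 regulatory subunits and no core subunit higher, where it called 2915 of 7608 genes in both directions together. Without both shallow libraries it called 17 regulatory and 5 core subunits higher and none of them lower. Leaving out LacZ RNAi A, LacZ RNAi B, Pop2 RNAi A or Pop2 RNAi C left 3 members called by limma, against 5 with all libraries, and leaving out LacZ RNAi C gave 14. The background of the fit without both shallow libraries was 32.5% of 7608 genes higher and 32.3% lower. No share over all genes is given for the fits with 1 library left out.

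Not1 RNAi and Pop2 RNAi were set against each other through the difference of their deposited fold changes, which share the LacZ RNAi controls, so that the test is conservative. No member differed, with 0.541% of 9051 genes higher in Not1 RNAi and 0.729% lower, and 6 members had an unadjusted p below 0.05. Limma with all libraries called none either. The median difference was 0.40 (log2) over the regulatory and 0.17 over the core subunits, against 0.07 over all genes. Rpt6, with the largest called rise in Not1 RNAi among the constitutive subunits, differed by 0.59 ± 0.29 (adjusted p = 0.435). In a direct limma contrast without both shallow libraries, 15 regulatory and 7 core subunits and the paralog Rpt6R were higher in Not1 RNAi than in Pop2 RNAi and none was lower, against 16.2% of genes higher and 14.5% lower. Rpt6 then differed by 0.62 ± 0.10 (adjusted p = 0.000153). Scaling all libraries to total size put the median of all genes in this contrast at -0.35 (log2).

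**Figure D3:**
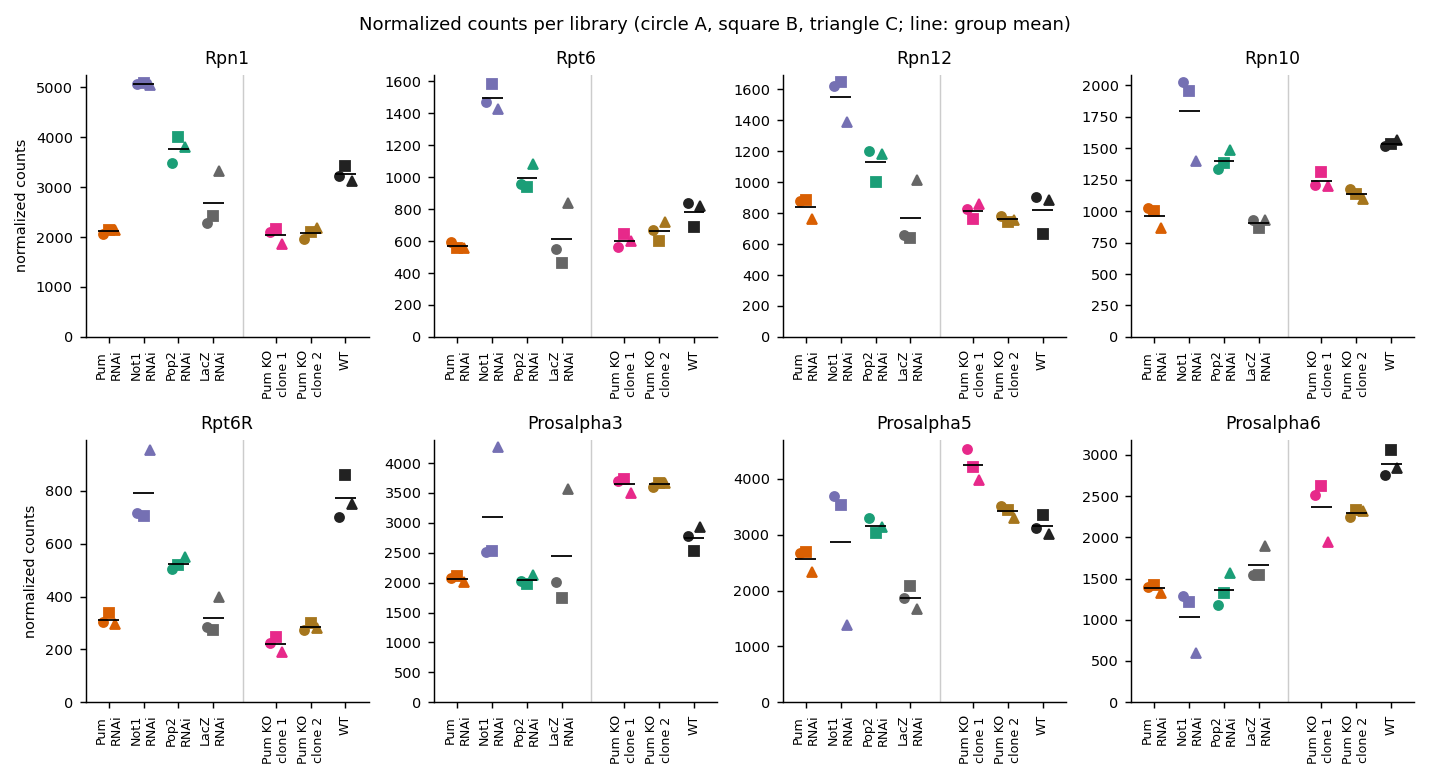
Normalized counts of 8 subunits in each library, with a line at the group mean, RNAi groups left of the grey line and knockout groups right of it. Among the RNAi groups, Rpn1, Rpt6, Rpn12 and Rpn10 are highest in Not1 RNAi and next in Pop2 RNAi. The triangle of LacZ RNAi (library C) lies above its partners for Rpn1, Rpt6 and Rpn12.

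Depletion of Pum gave no call. None of the 36 members tested passed in Pum RNAi against LacZ RNAi in the authors' deposited table, where 0.512% of 8596 genes were higher and 0.221% lower, and 2 members had an unadjusted p below 0.05. Median log2 fold changes were 0.02 over the core, -0.09 over the regulatory subunits and -0.02 over all genes. Rpn1 had 2056, 2138 and 2138 normalized counts in Pum RNAi, against 2279, 2423 and 3317 in LacZ RNAi. Each Pum RNAi library was below each control, but the authors' deposited table gave -0.34 ± 0.15 (log2, adjusted p = 0.44).

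Without both shallow libraries limma called 5 members higher and none lower in Pum RNAi, against 4.01% of 7608 genes higher and 3.86% lower. These were Prosalpha5 (0.38 ± 0.10), Prosalpha7 (0.32 ± 0.10), Prosbeta1 (0.45 ± 0.14), Prosbeta4 (0.39 ± 0.12) and Rpn12 (0.37 ± 0.10), with adjusted p between 0.0237 and 0.0496 by limma. The set thus held 4 core subunits, and medians were 0.20 over the core and 0.10 over the regulatory subunits. With all libraries, limma called none of them and 1 gene of 7608 in all. Scaling all libraries to total size put the median of all genes at 0.30 (log2) in this comparison, the core median at 0.33 and the regulatory median at 0.21.

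Set against Not1 RNAi, Pum RNAi differed in the mRNAs of the regulatory particle. By the difference of deposited fold changes, 12 of 18 regulatory subunits and Rpt6R were lower in Pum RNAi than in Not1 RNAi and no member was higher, against 16.8% of 8596 genes higher and 18.0% lower. No core subunit differed by this measure, which includes both shallow libraries. The median difference was -0.83 (log2) over the regulatory subunits, -0.13 over the core and -0.02 over all genes. Rpn1 showed -1.26 ± 0.21 (log2, adjusted p = 4.06e-08) and Rpt6 -1.40 ± 0.29 (adjusted p = 1.25e-05). Against Pop2 RNAi, Rpn1 (-0.83 ± 0.21), Rpt6 (-0.81 ± 0.29) and Rpt6R (-0.75 ± 0.26) were lower in Pum RNAi and no member was higher, where 10.1% of genes were higher and 9.31% lower. The called share of the 18 regulatory subunits was thus near that of all genes called lower. Scaling to total size put the median of all genes at 0.40 (log2) between Pum RNAi and Not1 RNAi. In that contrast Rpn3, Rpn9, Rpn10, Rpn11, Rpn12 and Rpt2 no longer passed by limma, with unchanged direction. Without both shallow libraries limma called more members in both contrasts, core subunits among them. It then called 5498 of 7608 genes between Pum RNAi and Not1 RNAi, and 5163 between Pum RNAi and Pop2 RNAi.

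In both knockout clones the mRNAs of most regulatory subunits were lower than in WT. The authors' deposited table called 13 of 18 regulatory subunits lower in clone 1 and 13 of 18 lower in clone 2, and none higher in either. The background was 22.9% of 10156 genes higher and 25.5% lower in clone 1, and 21.3% of 9925 genes higher and 23.5% lower in clone 2. Median log2 fold changes over the 18 were -0.30 in clone 1 and -0.22 in clone 2, against -0.07 and -0.04 over all genes. Scaled to total size, with limma, the clone 1 median was -0.36 against -0.06 over all genes. Both clones were compared with the same WT libraries, so their values are given side by side and their likeness is no second test. The summed level of the 6 hemocyte markers was lower in clone 1 and within the WT range in clone 2, with 8881 to 9678 normalized counts in clone 1 and 16002 to 17039 in clone 2, against 15547 to 17313 in WT. Their part in the proteasome values was not tested. In bulk samples fewer cells of a type and less RNA per cell cannot be told apart.

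Among regulatory subunits, Rpn1 had the smallest p in both clones. It had 2103, 2166 and 1868 normalized counts in clone 1 and 1952, 2090 and 2176 in clone 2, against 3225, 3414 and 3127 in WT. All 6 clone libraries lay well below all WT libraries. The authors' deposited table gave -0.67 ± 0.07 in clone 1 (log2, adjusted p = 1.26e-18) and -0.65 ± 0.07 in clone 2 (adjusted p = 1.86e-17). Rpn3 (FBgn0261396, chromosome 2L, 19051790 to 19053681), a lid scaffold subunit, had 435, 462 and 444 normalized counts in clone 1 and 436, 449 and 472 in clone 2, against 724, 681 and 719.8 in WT. Its log2 fold changes in the authors' deposited table were -0.66 ± 0.09 (adjusted p = 3.53e-13) and -0.65 ± 0.09 (adjusted p = 4.19e-12) in clone 1 and clone 2.

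Rpt3 (FBgn0028686, chromosome X, 11125101 to 11126785) led among the ATPases. It had 2806, 2957 and 2659 normalized counts in clone 1 and 2727, 2715 and 2642 in clone 2, against 3905, 3805 and 3716 in WT, with no overlap. This was -0.44 ± 0.06 in clone 1 (log2, adjusted p = 4.82e-12) and -0.50 ± 0.06 in clone 2 (adjusted p = 5.99e-15) per the authors' deposited table.

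Falls of intermediate size in the authors' deposited table were those of Rpn7 (-0.52 and -0.43), Rpn13 (-0.47 and -0.42), Rpn8 (-0.42 and -0.34), the structural partner of Rpn11, and Rpn10 (-0.31 and -0.43), each for clone 1 and clone 2. Rpn2, Rpn5, Rpn11, Rpt4 and Rpt6 also passed in both clones with falls between 0.18 and 0.38 in the authors' deposited table. Rpt1 passed in clone 1 with -0.22 and Rpt5 in clone 2 with -0.19. Rpn9 (-0.22 and -0.17 in clone 1 and clone 2) did not pass, nor did Rpn6, Rpn12 and Rpt2, whose values lay between -0.10 and 0.07 in the authors' deposited table. Rpt6 was the one called regulatory subunit with overlapping libraries, with 667, 603 and 720.5 normalized counts in clone 2, against 839, 689.8 and 819 in WT. Every library lay below every WT library for 14 of 18 regulatory subunits in clone 1 and 13 of 18 in clone 2. Over all genes, 34.0% of 7898 lay wholly below WT in clone 1 and 32.4% wholly above. In clone 2 these shares were 33.4% and 31.7% of 7971.

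Called core subunits lay in both directions, at shares near those of all genes. The authors' deposited table called 2 of 14 higher and 4 lower in clone 1, where 22.9% of all genes were higher and 25.5% lower. It called 2 higher and 3 lower in clone 2, where 21.3% of all genes were higher and 23.5% lower. Medians were -0.11 and -0.03 in clone 1 and clone 2. Prosalpha3 had 3698, 3740 and 3505 normalized counts in clone 1 and 3599, 3659 and 3674 in clone 2, against 2785, 2533 and 2930 in WT. This outer ring subunit was higher in all 6 clone libraries, by 0.41 ± 0.07 in either clone (log2, adjusted p = 2.71e-09 and 4.77e-09) per the authors' deposited table. Prosalpha4, an outer ring subunit too, had 4273, 4592 and 3575 normalized counts in clone 1 and 3309, 3191 and 3150 in clone 2, against 4754, 5977 and 4604 in WT. It fell by 0.30 ± 0.10 in clone 1 and by 0.67 ± 0.10 in clone 2 (log2) in the authors' deposited table.

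Prosalpha6 (-0.29 and -0.33) and the inner ring subunit Prosbeta6 (-0.35 and -0.23) were lower in clone 1 and clone 2 in the authors' deposited table. Prosalpha2, an outer ring subunit, passed in clone 1 alone (-0.31 ± 0.08), with -0.03 ± 0.08 in clone 2 in the authors' deposited table, a difference whose test did not pass. Among the proteases, the authors' deposited table called Prosbeta5 higher in clone 2 (0.33 ± 0.11, adjusted p = 0.00956) and not in clone 1 (0.09 ± 0.11), and called Prosbeta1 and Prosbeta2 in neither.

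The clones differed from each other in 1 member by the difference of deposited fold changes, with 2.95% of 9925 genes higher in clone 1 and 4.4% lower. This was Prosalpha5, with 4541, 4219 and 3983 normalized counts in clone 1, against 3507, 3449 and 3299 in clone 2. Every clone 1 library was above every clone 2 library, and the 3 WT libraries had 3114, 3348 and 3015. The difference was 0.31 ± 0.10 (log2, adjusted p = 0.0205).

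The balance between the particles can be read within each library, where no scaling between libraries enters. The summed level per kb of the regulatory subunits was divided by that of the core subunits. All 14 core subunits entered, Prosalpha1 included. The ratio was 0.865, 0.845 and 0.872 in Pum RNAi, 1.22, 1.21 and 1.45 in Not1 RNAi, 1.10, 1.10 and 1.08 in Pop2 RNAi, and 0.934, 0.893 and 0.924 in LacZ RNAi. In this ratio of sums the 4 RNAi groups did not overlap: Not1 RNAi lay highest, then Pop2 RNAi, LacZ RNAi and Pum RNAi. In the knockout experiment the ratio was 0.700, 0.730 and 0.767 in clone 1 and 0.788, 0.776 and 0.787 in clone 2, against 0.899, 0.865 and 0.887 in WT, and both clones lay below WT in every library. The ratio of the median levels per kb gave a different picture for some groups. Here the nearly read-free Prosalpha1 lowers the core median, so without it these ratios would be lower. They were not computed without it. It was 0.693, 0.622 and 0.668 in Pum RNAi, 1.01, 1.05 and 1.17 in Not1 RNAi, 0.877, 0.891 and 0.857 in Pop2 RNAi, and 0.725, 0.682 and 0.651 in LacZ RNAi. Not1 RNAi and Pop2 RNAi again lay above LacZ RNAi without overlap, while Pum RNAi overlapped with LacZ RNAi. In the knockout experiment this ratio was 0.654, 0.711 and 0.626 in clone 1 and 0.587, 0.582 and 0.601 in clone 2, against 0.636, 0.773 and 0.662 in WT. Clone 2 lay below WT by this measure too, and clone 1 overlapped with WT. Library C of LacZ RNAi, high for both particles, fell between its partners in the ratio of sums, while library C of Not1 RNAi was the highest of all. These ratios are a description of the chosen genes, with no test.

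**Figure D4:**
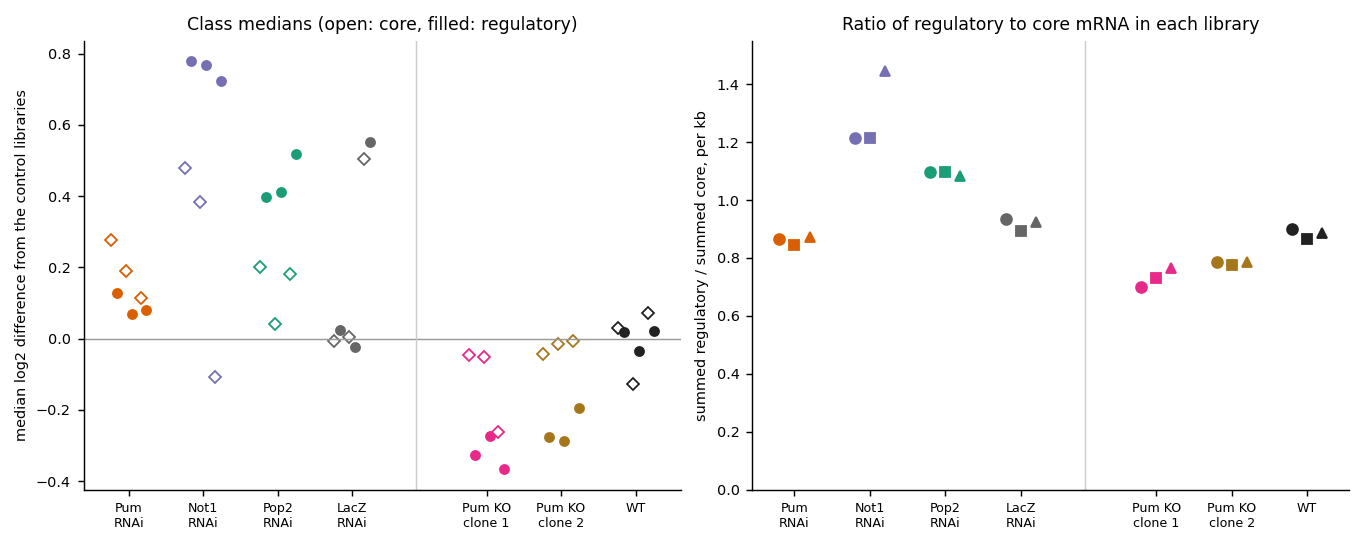
Left, median log2 difference of core (open) and regulatory (filled) subunits in each library from the control libraries, which are LacZ RNAi A and B or all 3 WT libraries. Both panels include Prosalpha1 among the core subunits. Right, ratio of summed regulatory to summed core level per kb in each library, from 0.700 in Pum KO clone 1 A to 1.45 in Not1 RNAi C.

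Most testis-type paralogs were silent. Of the 15, 8 had no read in any of the 21 libraries, which are Prosalpha4T2, Prosalpha6T, Prosbeta2R1, Prosbeta4R1, Prosbeta4R2, Prosbeta5R1, Rpt4R and Rpn12R. Another 3, Prosalpha3T, Prosbeta5R2 and Rpn13R, had at most 2 reads in any library. Prosalpha4T1, Prosbeta2R2, Rpt3R and Rpt6R had more and were tested. Of 9 testis and germline markers, aly, can, Mst84Da and dj had no read in any group and topi held most of the rest. The summed markers ranged from 81.1 to 89.9 normalized counts in Pum RNAi, 4.12 to 22.4 in Not1 RNAi, 41.7 to 43.5 in Pop2 RNAi, 2.17 to 60.1 in LacZ RNAi, 180.0 to 238 in clone 1, 141 to 166 in clone 2 and 134 to 179.6 in WT. Their part in the values of the paralogs was not tested.

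Rpt6R (FBgn0039788, chromosome 3R, 30582198 to 30583697), a paralog of the ATPase Rpt6, was the most abundant of them and changed in 4 of 5 comparisons. It had 718, 706 and 955 normalized counts in Not1 RNAi, 506, 521 and 549 in Pop2 RNAi and 302, 338 and 296 in Pum RNAi, against 286, 275 and 397 in LacZ RNAi. Not1 RNAi and Pop2 RNAi lay above every control, and Pum RNAi overlapped with the controls. The authors' deposited table gave 1.31 ± 0.18 in Not1 RNAi (log2, adjusted p = 6.91e-12), 0.73 ± 0.18 in Pop2 RNAi (adjusted p = 0.00029) and -0.02 ± 0.18 in Pum RNAi (adjusted p = 0.987). In the knockout experiment it had 225, 249 and 192 normalized counts in clone 1 and 274, 299 and 280 in clone 2, against 700, 862 and 752 in WT. All 6 clone libraries lay far below the WT libraries. The authors' deposited table gave -1.79 ± 0.12 in clone 1 (log2, adjusted p = 4.95e-53) and -1.44 ± 0.11 in clone 2 (adjusted p = 1.24e-34), folds of 3.46 and 2.71. The difference between the clones did not pass (-0.35 ± 0.16, adjusted p = 0.24).

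Per kb, Rpt6R made up 34.8% ± 2.2 of the sum of Rpt6 and Rpt6R in Pum RNAi, 33.9% ± 4.9 in Not1 RNAi, 34.0% ± 1.1 in Pop2 RNAi and 34.0% ± 2.6 in LacZ RNAi (SD, n = 3). The 4 RNAi groups overlapped in this share. In the knockout experiment the share was 26.3% ± 2.3 in clone 1 and 29.5% ± 2.7 in clone 2, against 48.9% ± 5.3 in WT, and the clones did not overlap with WT. LacZ RNAi, also in wild-type DL1 cells, lay below every WT library in this share too. The cause of that gap was not tested. Whether reads can be shared between Rpt6 and Rpt6R could not be looked at without their sequences.

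**Figure D5:**
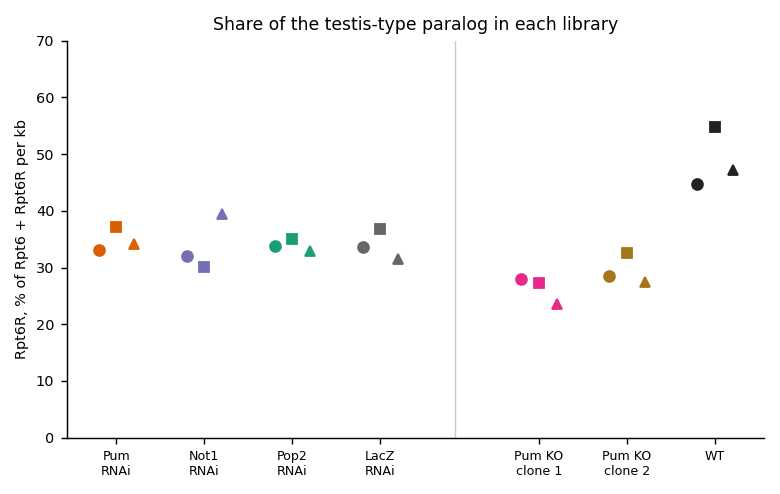
Share of Rpt6R in the summed level per kb of Rpt6 and Rpt6R in each library. The 12 RNAi libraries lie between 30.2% and 39.4%, the WT libraries between 44.8% and 54.8%, and the 6 clone libraries between 23.6% and 32.5%.

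Rpt3R (FBgn0037742, chromosome 3R, 9754735 to 9756510), a paralog of the ATPase Rpt3, was lower in both clones. It had 28.0, 31.2 and 39.4 normalized counts in clone 1 and 49.2, 41.9 and 45.0 in clone 2, against 107.6, 112 and 107.7 in WT. No clone library reached the WT range, and the authors' deposited table gave -1.75 ± 0.23 (log2, adjusted p = 1.65e-13) and -1.26 ± 0.22 (adjusted p = 1.13e-07) for clone 1 and clone 2. Per kb it made up 1.24% of the sum of Rpt3 and Rpt3R in clone 1 and 1.77% in clone 2, against 2.97% in WT. Its share was lower in Not1 RNAi with 1.98% and in Pop2 RNAi with 1.80% as well, against 3.00% in LacZ RNAi, with no overlap, while Pum RNAi with 2.48% overlapped with LacZ RNAi. No RNAi comparison called the level of Rpt3R itself, with 0.26 ± 0.30 (log2) in Not1 RNAi per the authors' deposited table. Its exons overlap with Alg12 on the opposite strand.

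Prosbeta2R2, a paralog of the protease Prosbeta2, was expressed at a low level. It had 4, 3 and 5 reads in clone 1 and 7, 10 and 4 in clone 2, against 39, 14 and 11 in WT. The authors' deposited table gave -2.92 ± 0.64 (log2, adjusted p = 1.74e-05) for clone 1 and -1.83 ± 0.58 (adjusted p = 0.00457) for clone 2, and the spread of the WT libraries was wide. Prosalpha4T1, a paralog of Prosalpha4, had 10, 5 and 0 reads in Not1 RNAi, against 12, 15 and 14 in LacZ RNAi. The authors' deposited table called it lower in Not1 RNAi (-1.91 ± 0.73, adjusted p = 0.0198), and without both shallow libraries limma gave -1.17 ± 0.52 (adjusted p = 0.0513). In the clones it did not pass, with 0.45 ± 0.31 and 0.11 ± 0.33 for clone 1 and clone 2 in the authors' deposited table.

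Genes that act with the proteasome were followed through 4 lists of 30 genes found in the tables. No list gene was called in Pum RNAi by the authors' deposited table. The counts that follow stand against the shares of all genes called higher and lower, which were 25.7% and 24.2% in Not1 RNAi, 18.8% and 20.1% in Pop2 RNAi, 22.9% and 25.5% in clone 1, and 21.3% and 23.5% in clone 2. With 6 to 11 genes a list, no list is set apart from them here. Of 6 assembly factors and regulators, 2 rose and 1 fell in Not1 RNAi, 2 rose and 2 fell in Pop2 RNAi, 2 rose and 2 fell in clone 1, and 2 rose and 1 fell in clone 2. REG, the gene of the 11S activator that can cap the core in place of the regulatory particle, had group means of 434 in Not1 RNAi and 492 in Pop2 RNAi, against 1227 normalized counts in LacZ RNAi, in the authors' deposited table. It fell by 1.49 and 1.32 (log2) there, and in the authors' deposited table it rose in clone 2 by 0.54 (adjusted p = 1.2e-14). It rose in clone 1 as well, by 0.45 (log2), in the authors' deposited table.

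Of 7 genes of transcriptional control, 3 rose in Not1 RNAi and none fell, 2 rose and 1 fell in Pop2 RNAi, and in either clone 2 rose and 3 fell. Keap1, whose protein holds the transcription factor cnc in check, averaged 440 normalized counts in Not1 RNAi and 303 in Pop2 RNAi, against 160 in LacZ RNAi, in the authors' deposited table. It averaged 198 in clone 1 and 196 in clone 2, against 373 in WT, in the authors' deposited table. Its log2 fold changes in the authors' deposited table were 1.42, 0.90, -0.91 and -0.93 for Not1 RNAi, Pop2 RNAi, clone 1 and clone 2.

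Of 11 genes of ubiquitin supply, 1 rose and 3 fell in Not1 RNAi, 4 fell in Pop2 RNAi, and in either clone 4 rose and 4 fell. RpS27A, which encodes ubiquitin fused to a ribosomal protein, averaged 7556 normalized counts in clone 1 and 8401 in clone 2, against 4854 in WT, in the authors' deposited table. Uba1, the ubiquitin-activating enzyme, fell by 0.68 ± 0.11 (log2, adjusted p = 2.72e-09) in Not1 RNAi per the authors' deposited table. Of 6 genes of p97, the segregase that hands ubiquitinated proteins to the proteasome, and its cofactors, 1 rose and 1 fell in both Not1 RNAi and Pop2 RNAi. In the clones 1 rose while 5 fell in clone 1 and 4 fell in clone 2. TER94, the p97 gene, rose by 0.74 ± 0.09 (log2, adjusted p = 4.42e-15) in Not1 RNAi and by 0.36 in Pop2 RNAi in the authors' deposited table. The cofactor Npl4 fell by 0.62 in clone 1 and by 0.48 in clone 2 (log2) in the authors' deposited table.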

How the data were processed

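ClickSeq libraries of poly(A) RNA from 21 samples were deposited as 2 tables, 1 per experiment. The submitters' processing notes name fastp 0.14.1, HISAT2 2.1.0, UMI-tools 1.0.1, featureCounts, DESeq2 1.23.110 and dm6; strand use and molecular identifier settings are not given in the sources used here. The deposited signal values are group means of normalized counts (counts over a size factor), also per kb, per the file headers. The authors' log2 columns are fold changes with standard errors, and the deposited p-values are those of their test and its adjustment. The files hold comparisons rather than counts, so the authors' test is the one reported, at adjusted p below 0.05.

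Whole reads per library were recovered from the means for 98.7% to 99.8% of genes above 0 in a group, which held 68.0% to 86.8% of its normalized counts; total depth was estimated from them. Lines without a gene, 7 per table, held at most 0.0742% and were left out. limma 3.58.1 (R 4.3.3, trend, Benjamini-Hochberg) was run on log2(normalized count + 1) over genes with a mean of at least 5, resolved in all libraries (7608 in the RNAi and 7897 in the knockout table), and was tested on simulated data. Differences between comparisons are those of the deposited log2 values over their combined standard error, adjusted over all genes tested in both. Alternatives were other scalings, filters, thresholds and left-out libraries. Members, lists and tests were chosen with earlier results of these data known. Named are members that passed in any comparison, the 6 largest rises and falls, the proteases, the paralogs, at most 4 pathway genes per comparison by smallest p, and the targets; other subunits are named for completeness. Nothing says whether the samples, labelled biological replicates, came from separate cultures, so p-values measure the spread between these samples.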

Additional observations from a re-analysis of the deposited data

Results flagged for a closer look

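Prosalpha5 differed between the knockout clones, as tested on the difference itself: its log2 fold change against WT was larger in Pum KO clone 1 than in Pum KO clone 2 by 0.31 ± 0.10 (adjusted p = 0.0205 over all genes tested in both). In the authors' deposited table it was 0.43 ± 0.07 in clone 1 (adjusted p = 2.38e-09) and 0.11 ± 0.07 in clone 2 (adjusted p = 0.181). All 3 libraries of clone 1 lay above all 3 of clone 2. At a threshold of 0.01 the difference did not pass.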

How the results depend on the processing

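No paired analysis was possible because the recovered libraries carry no replicate numbers. Counts of members called (main value after "against") moved by over 1.5 times as follows. At adjusted p below 0.01 they were 4 against 8 in Pop2 RNAi, 8 against 13 between Pum RNAi and Not1 RNAi, 1 against 3 between Pum RNAi and Pop2 RNAi, and 0 against 1 between the clones. By limma with all libraries they were 5 against 8 in Pop2 RNAi, 6 against 3 between Pum RNAi and Pop2 RNAi, and 4 against 1 between the clones. Without library C of both LacZ RNAi and Not1 RNAi, the shallow ones, limma called 5 against 0 in Pum RNAi, 29 against 16 in Not1 RNAi and 24 against 8 in Pop2 RNAi. It then called 28 against 13 between Pum RNAi and Not1 RNAi, 22 against 3 between Pum RNAi and Pop2 RNAi, and 23 against 0 between Not1 RNAi and Pop2 RNAi. Total library size gave 5 against 3 between Pum RNAi and Pop2 RNAi and 5 against 1 between the clones. Total size without the shallow libraries, a setting chosen after seeing the data, gave 19 in Pum RNAi, 29 in Not1 RNAi and 27 in Pop2 RNAi; between comparisons it gave 21 for Pum RNAi and Not1 RNAi, 22 for Pum RNAi and Pop2 RNAi, and 9 for Not1 RNAi and Pop2 RNAi. The number of all genes called moved as well. Of 7608 genes, limma without the shallow libraries called 599 in Pum RNAi, 5383 in Not1 RNAi and 4926 in Pop2 RNAi. Total size without them called 1445, 5348 and 5023. Between the clones limma called 1853 of 7897 genes with all libraries and 1842 with total size. A larger count of members is thus not by itself a result about them. The cause of these shifts was not tested.

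Medians (log2) moved with total size to 0.33 (core) and 0.21 (regulatory) in Pum RNAi, 0.58 (regulatory) in Not1 RNAi, 0.26 (core) and 0.53 (regulatory) in Pop2 RNAi, -0.36 (regulatory) in clone 1 and -0.073 (core) in clone 2. Without the shallow libraries they moved to 0.20 and 0.10 in Pum RNAi, 0.78 (regulatory) in Not1 RNAi, and 0.14 and 0.41 in Pop2 RNAi, core before regulatory. The core median in Not1 RNAi was higher without them too, as given above. Leaving out 1 library at a time, limma called 0 members in Pum RNAi, 12 to 23 in Not1 RNAi, 3 to 14 in Pop2 RNAi, 21 to 26 in clone 1, 18 to 23 in clone 2, 12 to 22 between Pum RNAi and Not1 RNAi, 3 to 10 between Pum RNAi and Pop2 RNAi, 0 to 9 between Not1 RNAi and Pop2 RNAi, and 2 to 6 between the clones. Each highest RNAi count came without LacZ RNAi C. Without Not1 RNAi C the counts were 20 in Not1 RNAi and 9 in Pop2 RNAi. Shares over all genes are not given for these fits. Of single called members, 193 values kept direction and call, 15 kept direction and lost the call, and 0 changed direction. These counts cover limma with all libraries, with total library size, and without both shallow libraries. The stricter threshold, total size without the shallow libraries and the fits with 1 library left out did not enter them.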
